A study of Mus musculus with 2 samples.

Results

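The Mir17hg cluster, also known as oncomiR-1, is a run of 6 miRNA hairpins, from miR-17 to miR-92a, cut from a single primary transcript. Its mature products were followed here in miRNAs recovered on streptavidin from cells with a biotin ligase fused to the desmosomal protein desmoplakin. The members were the 10 mature names mmu-miR-17-5p, mmu-miR-17-3p, mmu-miR-18a-5p, mmu-miR-18a-3p, mmu-miR-19a-3p, mmu-miR-20a-5p, mmu-miR-20a-3p, mmu-miR-19b-3p, mmu-miR-92a-3p and mmu-miR-92a-1-5p, taken by name from the 1477 miRNA names found. All 10 were found in at least 1 library, and 9 were found in both. The other arms of the miR-19a and miR-19b-1 hairpins, miR-19a-5p and miR-19b-1-5p, are not members and are given beside them.

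Both libraries belonged to 1 group. They came from mouse skin keratinocytes, grown in a low-calcium medium, that expressed an introduced Dsp-BirA fusion and had been supplied with biotin. Dsp (desmoplakin) is the protein that ties the desmosome, a junction between epithelial cells, to keratin filaments, and BirA is a biotin ligase that marks proteins close to it. After nuclease treatment the marked proteins and the RNA on them were taken up on streptavidin, and linkers were ligated to the RNA before amplification. No library of cells without the fusion, without biotin or before the pulldown was analysed here, so the values are levels in the recovered RNA and not enrichments. The labels do not say whether the libraries came from separate cultures, so the spread between them may be technical.

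A miRNA hairpin is cut into a duplex of a 5p and a 3p arm, and 1 arm is usually kept by an Argonaute protein as the guide while the other is mostly lost. The guide finds target RNAs mainly through its seed, the bases 2 to 8 from its 5′ end. The Mir17hg transcript is known as a target of MYC and E2F factors and as a driver of proliferation and survival in development and cancer. Its miR-17 and miR-20a guides are known to repress Cdkn1a and Tgfbr2, and its miR-92a guide, together with miR-17, Bcl2l11. The targets themselves were not analysed here.

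The cluster spanned 836 bases of the plus strand of chromosome 14 (chr14:115043671-115044506, RefSeq annotation of GRCm38.p6) in the order Mir17, Mir18, Mir19a, Mir20a, Mir19b-1 and Mir92-1, with gaps of 35 to 96 bases between hairpins. The RefSeq gene table places the lncRNA Mir17hg at chr14:115044390-115046728, so that 1 of the 6 hairpins, Mir92-1, lay wholly within the annotated gene. Sequences of all 10 members were found by name in the RefSeq table of mature miRNAs. The 6 guides are shown because they define the 4 seed groups by which the levels are read, with the seed in capitals.
miR-17-5p: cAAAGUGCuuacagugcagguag
miR-20a-5p: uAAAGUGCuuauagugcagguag
miR-18a-5p: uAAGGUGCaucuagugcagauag
miR-19a-3p: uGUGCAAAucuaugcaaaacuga
miR-19b-3p: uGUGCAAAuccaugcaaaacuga
miR-92a-3p: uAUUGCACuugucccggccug

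miR-17-5p and miR-20a-5p shared the seed AAAGUGC and differed at 2 of 23 positions, C1U and C12U (the first-named miRNA's base, the position from the 5′ end, then the other's base). miR-19a-3p and miR-19b-3p shared the seed GUGCAAA and differed at 1 of 23 positions, U11C. miR-18a-5p differed from miR-17-5p at 6 positions, of which 1, A4G, lay in the seed, giving AAGGUGC. The miR-92a-3p seed was AUUGCAC. The seeds of the miR-17, miR-18 and miR-19 groups had the 4 letters GUGC in common, and the target string complementary to the seed was GCACUUU for the miR-17 group, GCACCUU for the miR-18 group, UUUGCAC for the miR-19 group and GUGCAAU for miR-92a. Of the 6 guides, 5 began with U and miR-17-5p with C, while the members from the opposite arms all began with A. Among all names with a sequence, 40.6% began with U.

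Depth was similar in the libraries, with 3776893 miRNA counts in replicate 1 and 4122955 in replicate 2. Levels are given as CPM, counts per 1000000 miRNA counts of the library, and an error after ± is the SD over the 2 libraries. The counts differed between the libraries by more than sampling noise (chi-square of 60.6 per degree of freedom), so they were kept as separate replicates. The keratinocyte label was set against miRNA markers alone: the 7 epithelial names took 10.6% ± 0.0228 of counts, led by miR-141-3p and miR-205-5p, while the blood list took 0.000899% ± 0.000410, the liver name 0.000650% ± 0.000282, the muscle list 0.00366% ± 0.00168 and the neural list 0.0108% ± 0.000864. Intervals cover counting error only and take reads as independent molecules, which was not tested, since the handling of PCR copies is not given.

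The cluster's summed share differed between the libraries by less than counting error. The 10 members held 82663 counts in replicate 1, or 2.19% (95% interval by Wilson's method 2.17% to 2.20%), and 89840 in replicate 2, or 2.18% (2.16% to 2.19%). The mean was 2.18% ± 0.00681 (SD, n = 2). The log2 ratio of the summed members, replicate 2 over replicate 1, was -0.0064 with an exact 95% interval from -0.020 to 0.0073, which spans 0. The median member had 1491 CPM and the median of the 1002 names that averaged 10 counts or more had 10.8 CPM. Of the member counts, miR-19b-3p and miR-92a-3p cannot be assigned to this cluster alone, since Mir19b-2 and Mir92-2 on the X chromosome encode the same mature sequences. Without both names the share was 1.34% ± 0.0441.

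The miR-17 and miR-19 seeds carried most of the cluster's counts. miR-17-5p and miR-20a-5p together gave 43.6% of them in replicate 1 and 42.9% in replicate 2, a mean of 43.3% ± 0.551 (SD, n = 2). miR-19a-3p and miR-19b-3p gave 35.0% and 36.7%, a mean of 35.9% ± 1.20. miR-92a-3p gave 10.2% and 10.8%, and miR-18a-5p gave 6.52% and 5.77%. The gap between the miR-17 and miR-19 groups exceeded the spread between the libraries, as did that between the miR-92a and miR-18 groups. These group totals rest on the shared names: without miR-19b-3p and miR-92a-3p the miR-17 seed held 70.8% of the remaining counts and the miR-19 seed 12.3%.

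Among single members, miR-19b-3p was the most abundant, with 22588 counts (5981 CPM) in replicate 1 and 26395 counts (6402 CPM) in replicate 2. Its mean of 6191 CPM ± 298 (SD, n = 2) placed it at rank 34 and 31 of all names. miR-19a-3p, which carries the same seed and comes from the hairpin on the other side of Mir20a, had 6355 counts (1683 CPM) and 6582 counts (1596 CPM), with a mean of 1640 CPM ± 60.9. miR-19b-3p exceeded miR-19a-3p by 3.55 times in replicate 1 (exact 95% interval 3.46 to 3.66) and 4.01 times in replicate 2 (3.90 to 4.12), in each library by far more than counting error. The part of this gap that came from Mir19b-2 cannot be read from the names. The assignment of reads that match both miRNAs is not stated either.

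The pair with the miR-17 seed did not differ in level beyond the spread between the libraries. miR-20a-5p had 18464 counts (4889 CPM) in replicate 1 and 18828 counts (4567 CPM) in replicate 2, and miR-17-5p had 17618 counts (4665 CPM) and 19687 counts (4775 CPM). Their means were 4728 CPM ± 228 and 4720 CPM ± 78.0. miR-20a-5p was the higher in replicate 1 and miR-17-5p in replicate 2, so their order was not fixed: miR-17-5p had 0.954 times the counts of miR-20a-5p in replicate 1 and 1.05 times in replicate 2. How the authors assigned reads that match both of these miRNAs is not stated.

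The miR-92a and miR-18a guides were lower. miR-92a-3p had 8455 counts (2239 CPM) and 9665 counts (2344 CPM), with a mean of 2291 CPM ± 74.7 (SD, n = 2). miR-18a-5p had 5389 counts (1427 CPM) and 5184 counts (1257 CPM), with a mean of 1342 CPM ± 120. It was thus the least recovered guide of the cluster in both libraries, and miR-17-5p, which lies next to it on the transcript, had 3.27 times its counts in replicate 1 and 3.80 times in replicate 2. From the highest guide to the lowest, miR-19b-3p over miR-18a-5p, the ratio was 4.64 ± 0.636. These are ratios of reads, and differences in ligation or amplification between miRNAs were not measured.

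**Figure D1:**
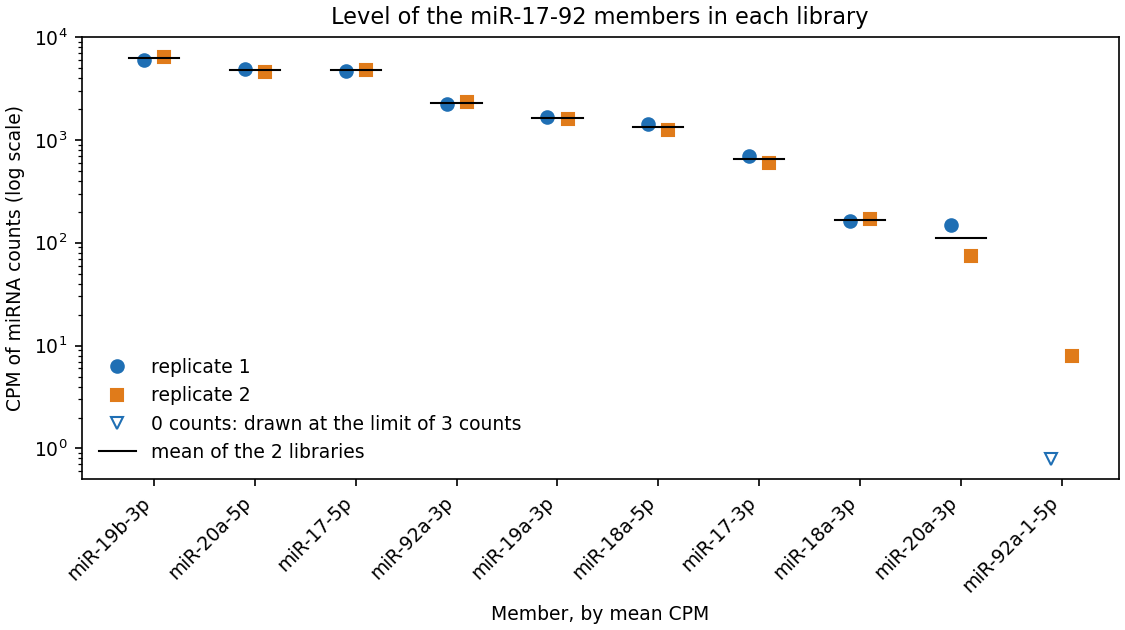
The plot shows the CPM (log axis) of each of the 10 members, ordered by mean, with circles for replicate 1, squares for replicate 2 and a bar for their mean; the open triangle marks 0 counts, drawn at the 0.794 CPM that 3 counts would give. The 6 guides lie between 1257 and 6402 CPM, above every member from an opposite arm, and miR-20a-3p shows the widest gap among members found in both libraries.

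Ordered by mean level, 7 of the 9 neighbouring pairs of members lay apart, meaning that both libraries gave the same order and the gap exceeded the sum of the SDs. The pairs that did not were miR-20a-5p with miR-17-5p, and miR-18a-3p with miR-20a-3p, whose means of 167 and 112 CPM differed by less than the sum of their SDs. The step from miR-17-5p to miR-92a-3p was 2.06 ± 0.0331 times (SD, n = 2). The step from miR-18a-5p, the lowest guide, to miR-17-3p, the highest opposite arm, was 2.09 ± 0.0283 times.

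The opposite arms covered a wider range of levels than the guides. miR-17-3p had 2609 counts (691 CPM) in replicate 1 and 2462 counts (597 CPM) in replicate 2, a mean of 644 CPM ± 66.2 (SD, n = 2). miR-18a-3p had 618 counts (164 CPM) and 701 counts (170.02 CPM), and miR-20a-3p had 567 counts (150.1 CPM) and 303 counts (73.5 CPM). miR-17-3p was thus 4.60 times miR-20a-3p in replicate 1 and 8.13 times in replicate 2, while the guides of the same hairpins had ratios of 0.954 and 1.05. miR-92a-1-5p was at 0 counts in replicate 1, which by counting error alone allows up to 0.794 CPM. It was at 33 counts (8.004 CPM) in replicate 2, 10.08-fold above that limit of 3 counts. The libraries differed by more than counting error, so this is not a firm bound. Of the 400 names that averaged 10 to 30 counts, as it did, 261 had counts in both libraries. Of the arms that are not members, miR-19a-5p had 121 and 52 counts and miR-19b-1-5p had 95 and 181. They moved in opposite directions between the libraries.

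The arms can be placed in the hairpins of Mir17, Mir18 and Mir20a (RefSeq, GRCm38.p6, plus strand), shown because these are the hairpins of the cluster whose 5p arm led, with the mature arms in capitals.
Mir17 (chr14:115043671-115043754): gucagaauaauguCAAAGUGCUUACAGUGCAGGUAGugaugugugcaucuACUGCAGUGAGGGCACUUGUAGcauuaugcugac
Mir18 (chr14:115043851-115043946): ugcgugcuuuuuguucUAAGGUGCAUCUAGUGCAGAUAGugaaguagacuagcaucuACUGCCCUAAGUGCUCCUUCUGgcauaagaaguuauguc
Mir20a (chr14:115044157-115044263): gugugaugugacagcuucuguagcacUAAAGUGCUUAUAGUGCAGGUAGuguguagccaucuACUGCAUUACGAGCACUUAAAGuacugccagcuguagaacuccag

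The 5p arm of Mir17 held 87.1% of its counts in replicate 1 (95% interval by Wilson's method 86.6% to 87.6%) and 88.9% of those in replicate 2 (88.5% to 89.3%). That of Mir18 held 89.7% (88.9% to 90.5%) and 88.1% (87.2% to 88.9%), so the libraries placed Mir17 and Mir18 in opposite order and their means of 88.0% ± 1.26 and 88.9% ± 1.15 (SD, n = 2) differed by less than their spread. The 5p arm of Mir20a held more, 97.0% and 98.4%. The 3p arm led in the remaining hairpins, with 98.7% ± 0.767 for Mir19a, 99.5% ± 0.185 for Mir19b-1 and 99.8% ± 0.241 for Mir92-1. For the last pair the 3p count includes any reads from the X chromosome copies. Over the 164 hairpins of the series with 5p and 3p names and at least 100 counts in each library, the leading arm held a median of 94.6%, with quartiles of 80.2% and 99.2%. The seeds of miR-17-3p and miR-20a-3p, CUGCAGU and CUGCAUU, were not the same, with 1 substitution, G7U, inside them.

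**Figure D2:**
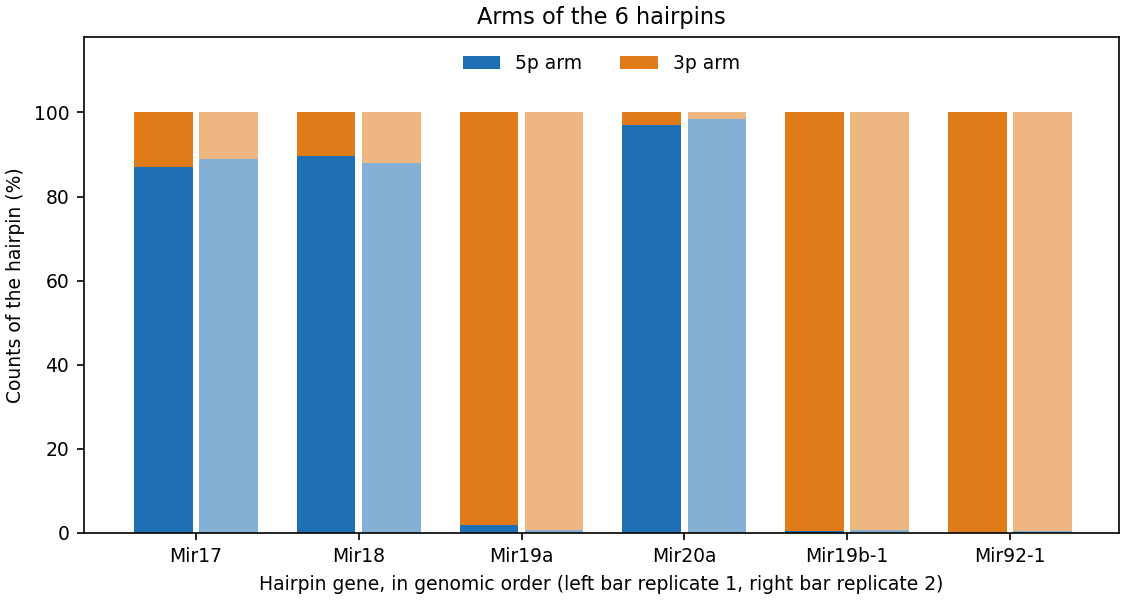
Stacked bars give the percentage of each hairpin's counts from the 5p arm (blue) and the 3p arm (orange) in replicate 1 (left bar) and replicate 2 (right, paler bar), for the 6 hairpin genes in genomic order. The 5p arm led in Mir17, Mir18 and Mir20a and the 3p arm in Mir19a, Mir19b-1 and Mir92-1, in both libraries, and the minor arm was largest in Mir17 and Mir18.

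Other loci encode the same seeds, among them the paralogous miR-106b-25 cluster and the miR-106a-363 cluster on the X chromosome. Names with a seed of the 4 groups were sought among the 1231 names (83.3% of all names, 90.2% and 88.0% of counts) that matched a RefSeq mature sequence, so a relative without a match is not counted. Within the miR-17 seed the cluster held 52.8% of counts in replicate 1 and 52.3% in replicate 2, a mean of 52.5% ± 0.351 (SD, n = 2). The rest was miR-106b-5p with 25.1% ± 0.242, miR-93-5p with 20.8% ± 0.590, miR-106a-5p with 1.33% ± 0.0243 and miR-20b-5p with 0.230% ± 0.0277. miR-17-5p, miR-20a-5p and miR-106b-5p thus took similar parts, with 4568 and 4448 CPM for miR-106b-5p. Within the miR-92a seed miR-92a-3p held 49.8% ± 1.15, miR-25-3p 26.8% ± 0.521 and miR-32-5p 23.2% ± 0.685, and each of the remaining names stayed below 1% in both libraries. All counts found under the miR-18 and miR-19 seeds carried member names. The only names found with the miR-19 seed were miR-19a-3p and miR-19b-3p, so its share was set by the list of members. As miR-19b-3p and miR-92a-3p are also encoded on the X chromosome, the miR-19 and miR-92a shares are of names, not of loci. miR-18b-5p, which shares the miR-18 seed, had 0 counts in both libraries, which by counting error alone allows up to 0.794 and 0.728 CPM.

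**Figure D3:**
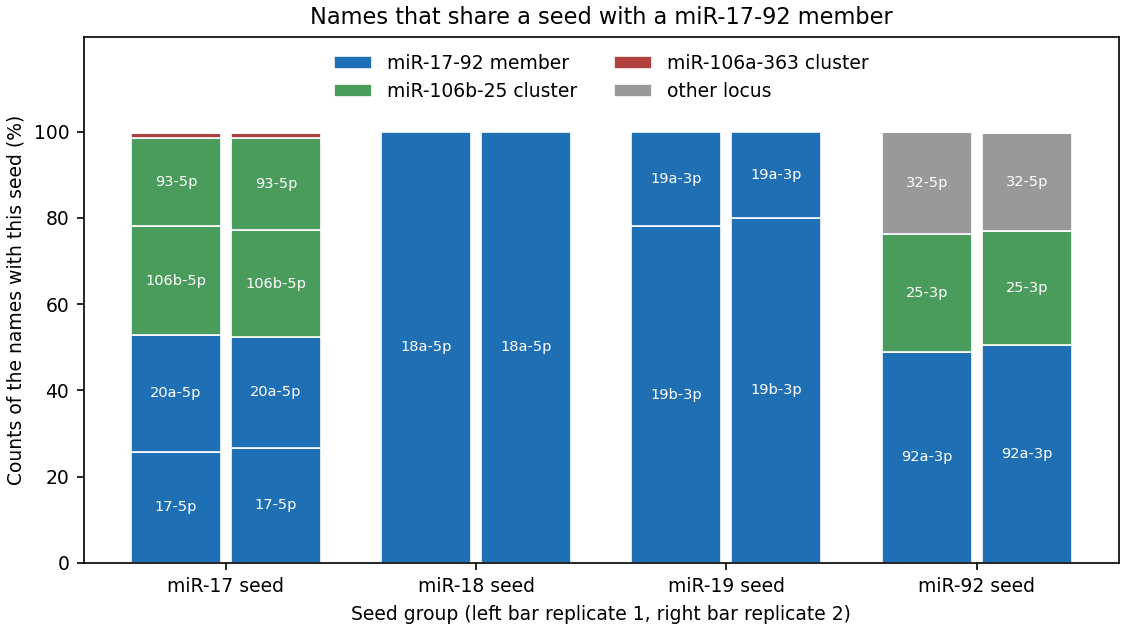
Each bar gives the percentage of all counts with a given seed by mature name, coloured by cluster, in replicate 1 (left) and replicate 2 (right). Member names made up all counts of the miR-18 and miR-19 seeds, 52.5% of those of the miR-17 seed and 49.8% of those of the miR-92a seed. The counts of miR-19b-3p and miR-92a-3p include any reads from the X chromosome copies.

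As sums, the miR-106b-25 names took 1.13% ± 0.000372 of miRNA counts and the miR-106a-363 names 0.0300% ± 0.000285. The Mir17hg cluster members had 1.94 ± 0.00541 times the counts of the first and 72.7 ± 0.464 times those of the second (SD, n = 2). The sums cover 10 names for the Mir17hg cluster, 6 for miR-106b-25 and 10 for miR-106a-363, so they do not compare levels per name or per hairpin. These ratios credit miR-19b-3p and miR-92a-3p, which the X chromosome locus also encodes, to the Mir17hg cluster alone. Without these 2 names, a setting chosen after seeing the data, the ratios were 1.19 ± 0.0388 and 44.5 ± 1.04. The names that only the X chromosome locus encodes were low: miR-106a-5p had 920 and 966 counts, miR-20b-5p 144 and 184, and miR-363-5p 33 and 29. The others were found in 1 library or neither, with miR-18b-3p at 34 and 0, miR-106a-3p at 11 and 0, miR-363-3p at 0 and 25, miR-19b-2-5p at 0 and 15, miR-92a-2-5p at 0 and 11, and miR-20b-3p at 0 in both. miR-106a-5p differs from miR-17-5p at 1 position, U10A, and miR-17-5p had 19.8 ± 0.870 times its counts. The assignment of reads that match both is not stated. In the miR-106b-25 cluster the minor arms miR-93-3p, with 1092 and 1054 CPM, and miR-106b-3p, with 660.3 and 732 CPM, were of the order of miR-17-3p, while miR-25-5p had 14 and 0 counts. miR-25-3p, with 1243 and 1225 CPM, was lower than miR-92a-3p by a ratio of 1.86 ± 0.0788.

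The names outside the cluster nearest in level to its 3 most abundant members, by Euclidean distance of log2(CPM + 1) over the 2 libraries, were miR-96-5p, let-7a-5p and miR-200c-3p for miR-19b-3p, at distances of 0.094, 0.12 and 0.20. For miR-17-5p they were miR-15b-5p (0.057), miR-106b-5p (0.11) and miR-203-3p (0.14), and for miR-20a-5p the same names with miR-106b-5p (0.10) first. With 2 libraries of 1 group this measure reads little more than similar abundance.

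Between the libraries, single members differed by small ratios that mostly exceeded counting error. In the exact two-sided binomial test of each name's split against the library totals, with Benjamini-Hochberg adjustment over 1002 names, 9 of the 10 members passed an adjusted p-value of 0.05, where 70.6% of all names did. The test compares libraries, not conditions, and it takes reads as independent. Of the members, 4 were higher in replicate 2 (36.2% of all names were) and 5 were lower (34.3% of all names). Of those 4, miR-92a-1-5p, with 0 and 33 counts, met the minimum average of 10 counts through replicate 2 alone. Its call was thus close to fixed by that filter. Among names averaging 100 counts or more, 8 of 9 members passed, as did 254 of 358 names. The median absolute log2 ratio was 0.098 over the members and 0.83 over all names tested, whose median level was far lower. After division of all counts by 20.7, the average ratio of variance to mean between these libraries, 0 members and 16 of all names passed the same exact test. In it 1 member, miR-20a-3p, had an unadjusted p-value under 0.05. The divisor came from the libraries compared, so a drop is built into this setting. It was taken over names averaging 10 to 300 counts, while the guides had far more.

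The guides moved little. miR-19b-3p was higher in replicate 2 by a log2 ratio of 0.098 (exact 95% interval 0.073 to 0.12, exact binomial test, adjusted p = 4.67e-13) and miR-20a-5p lower, with -0.098 (-0.13 to -0.069, adjusted p = 2.58e-10, same exact test). miR-17-5p had 0.034 and miR-92a-3p 0.066, and miR-19a-3p had -0.076 and miR-18a-5p -0.18. Members of 1 seed thus moved in opposite directions: miR-17-5p against miR-20a-5p, and miR-19b-3p against miR-19a-3p. These shifts were smaller than the SD of the log2 ratio among names of like abundance. That SD was 0.22 over the 59 names that averaged over 10000 counts and 0.33 over the 100 names that averaged 1000 to 10000. Of the 9 members found in both libraries, 8 lay within 1 such SD, and the share of all names within it is not given here. The median absolute log2 ratio of the same classes was lower, at 0.053 and 0.16. Guides above the median of their class were miR-19b-3p, miR-20a-5p and miR-18a-5p, while miR-17-5p, miR-92a-3p and miR-19a-3p were below it.

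miR-20a-3p was the exception among the members found in both libraries. It fell from 567 to 303 counts, a log2 ratio of -1.03 (exact 95% interval -1.24 to -0.83), or 2.04-fold after scaling, with an adjusted p of 1.73e-23 in the exact binomial test. Its ratio was 2.12 times the SD of 0.48 among the 97 names that averaged 300 to 1000 counts, and 5 of those names, itself included, had a ratio as large. Its hairpin partner miR-20a-5p fell by a log2 ratio of only 0.098 in the same libraries. miR-18a-3p, in the same range of counts, was the member that did not pass, with a log2 ratio of 0.055 (-0.10 to 0.21) and an adjusted p of 0.54 in the exact test. miR-17-3p had -0.21 (-0.29 to -0.13). Of the arms that are not members, miR-19a-5p had -1.34 and miR-19b-1-5p 0.80, at lower counts than miR-20a-3p. Unlike miR-20a-3p, both lay within the SD among names of like abundance. That SD was 1.71 over the names that averaged 30 to 100 counts, as miR-19a-5p did. It was 1.04 over those that averaged 100 to 300, as miR-19b-1-5p did.

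**Figure D4:**
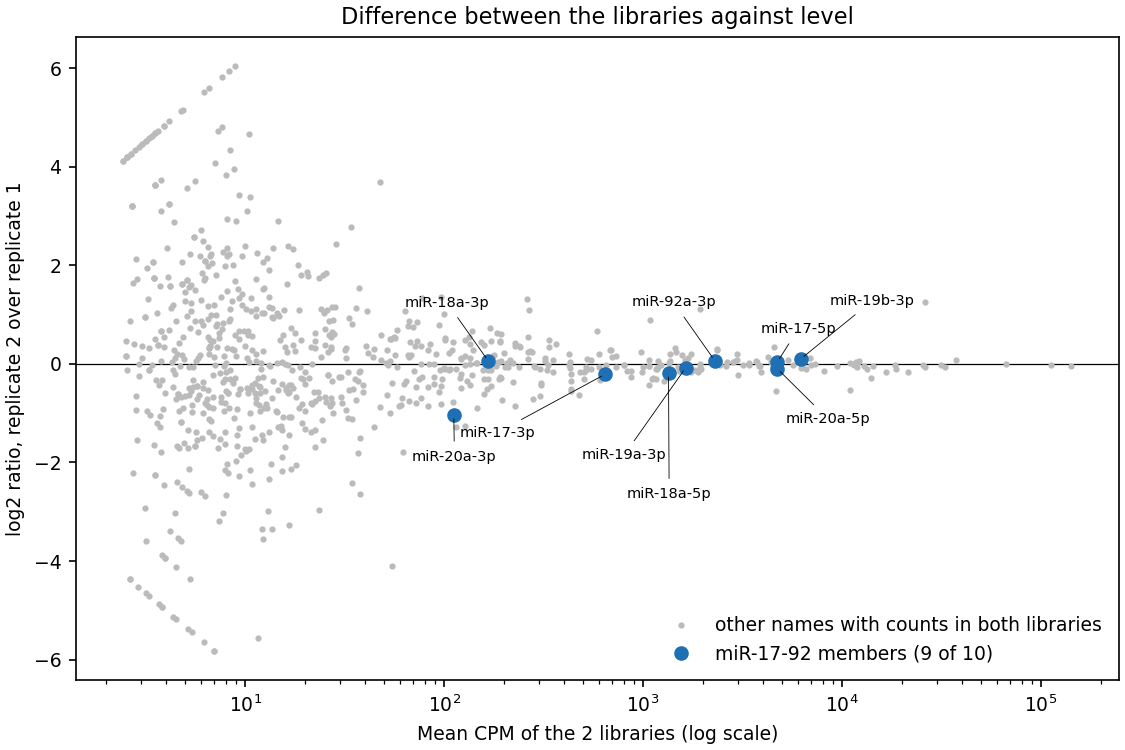
Each point is a name that averaged 10 counts or more and was found in both libraries, placed by its mean CPM (log axis) and its log2 ratio of replicate 2 over replicate 1; the 9 members found in both libraries are blue and labelled. The members lie close to 0 except miR-20a-3p at -1.03, and the spread of the other names widens toward low CPM.

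In the related clusters the same test was passed by 3 of the 5 miR-106b-25 names tested (2 higher and 1 lower in replicate 2) and by 2 of the 5 miR-106a-363 names tested (1 in each direction, both at 0 counts in one of the libraries), where 70.6% of all names passed. Those 2 names, miR-18b-3p and miR-363-3p, met the minimum average of 10 counts through 1 library alone. Their calls were thus close to fixed by that filter. miR-25-3p had a log2 ratio of -0.020 and miR-106b-5p one of -0.038, within the range of the guides of the Mir17hg cluster.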

How the data were processed

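miRNAs were counted in 2 replicate libraries of 1 group. The authors deposited 1 table per library of whole-number counts of reads per mature miRNA name. The counts are not normalised, as their totals differ. Per the submitters' processing notes, cutadapt, Novoalign and the genome build mm10 were used. Their settings, and the handling of PCR copies, of reads matching several miRNAs and of chimeras, are not given in the sources used here. Names missing from a table were set to 0. Rows not named as mouse miRNAs were left out (0.00265% and 0.000218% of counts).

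Depth was 3776893 and 4122955 counts. By counting error alone, 0 counts allow up to 3 counts, or 0.794 and 0.728 CPM. Intervals are Wilson or exact (Clopper-Pearson) at 95%. Names averaging 10 counts or more entered the exact two-sided binomial test between the libraries. With 2 libraries an exact sign-flip test cannot give a p-value below 0.5, so levels were set against the SD. Counts were also simulated for 1002 names with counting (Poisson) error only, 200 of them changed 2-fold. There the binomial test called 64% of those changed, and 2.29% of its calls fell on unchanged names. The real libraries differed by more than counting error (chi-square of 60.6 per degree of freedom), so these rates do not carry over to them.

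Alternatives were edgeR TMM factors (version 4.0.16, R 4.3.3) and DESeq2 size factors (version 1.42.0), other totals, count minimums and thresholds, counts divided by 20.7, the average ratio of variance to mean between the libraries (names averaging 10 to 300 counts), other sets of members, a 6-base seed, and leaving out each library. The members, lists, tests and alternatives were chosen with earlier results of these data known. The text names the members, the other arms of their hairpins, the paralogous clusters, names with at least 1% of a member's seed in both libraries, the names nearest in level to the 3 most abundant members, and markers of epithelium, muscle, neural tissue, blood and liver. Sequences and positions came from RefSeq tables of GRCm38.p6. The software was scipy 1.17.1, numpy 2.4.6 and pandas 2.3.3 under Python 3.11.15, with matplotlib 3.10.9.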

Additional observations from a re-analysis of the deposited data

How the results depend on the processing

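The cluster's share of all miRNA counts, 2.18%, was 2.55% once miR-31-5p was left out of the total and 2.20% of the total over names averaging 100 counts or more, which follows from the smaller totals, and 1.34% without miR-19b-3p and miR-92a-3p. That first change of the total also raised the CPM of 8 of the 10 members by more than the SD, and the other scalings moved none by that much. Without those shared names the miR-17, miR-18 and miR-19 seeds held 70.8%, 10.04% and 12.3% of the remaining member counts. With the more abundant arm of each hairpin only, the miR-17, miR-19 and miR-92 seeds held 45.2%, 37.4% and 11.0%. The number of members differing between the libraries was 2 when a ratio of at least 2-fold was also required (miR-20a-3p and miR-92a-1-5p) and 0 of 10 in the exact binomial test on counts divided by 20.7, the average ratio of variance to mean, where 1 had an unadjusted p-value under 0.05. It was 8 or 9 under the other settings, and 9 with edgeR TMM factors or DESeq2 size factors. Of all names, 708 and 701 of 1002 passed with those factors. At the threshold of 0.01, 638 of 1002 passed, and without a count minimum 903 of 1477 did. Among names averaging 100 counts or more, 254 of 358 passed. With a 2-fold ratio 441 of 1002 names passed, and on divided counts 16 of 1002. The divisor of 20.7 came from the same libraries, so a drop is built into the setting with divided counts. No member changed direction with edgeR TMM factors or DESeq2 size factors. The other settings of the test use the same ratio, so they could not change its direction. Arm shares with the paralogous arms added and family shares with a 6-base seed stayed within the spread between the libraries. With a doubled gap 5 neighbouring pairs lay apart, where 7 had. The pairs lost were miR-19a-3p with miR-18a-5p, and miR-20a-3p with miR-92a-1-5p. Without replicate 1 or replicate 2, the cluster's share ranged from 2.18% to 2.19%. The test between the libraries, and the test of neighbouring pairs, need both of them. No paired analysis was possible because both libraries belong to the same group. The spread between the libraries limits statements on names with few counts, such as miR-92a-1-5p.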
